A study of Mus musculus with 24 samples.

Results

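A set of 9 forkhead transcription factor genes that direct cell lineages was followed in mouse embryonic stem cells (ESCs) before and after the Polycomb repressive complex PRC1 was removed or inactivated. They were Foxa1, Foxa2 and Foxa3, Foxc1 and Foxc2, Foxf1 and Foxf2, and Foxd3 and Foxj1. They were chosen by symbol, with 1 row of the gene table each, and make up 9 of its 20633 rows (19409 symbols).

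The data were calibrated RNA-seq (cRNA-seq) libraries, in which total RNA was prepared from ESCs mixed with a fixed share of Drosophila SG4 cells, so that levels could be scaled to an external reference. Both lines carry a Cre recombinase fused to the oestrogen receptor at Rosa26 (Rosa26::ERT2-Cre), and each line is 1 clone. The PRC1CKO line is Ring1a-/-; Ring1b fl/fl, and 72 h with 800 nM 4-hydroxytamoxifen (OHT) deletes the remaining catalytic subunit RING1B. The PRC1CPM line carries Ring1a I50A/D53K and a floxed Ring1b that OHT switches from wild type to I53A/D56K, so that treated cells keep RING1A and RING1B without their ubiquitin ligase activity. By these labels untreated PRC1CKO cells have RING1B and no RING1A, and untreated PRC1CPM cells have wild-type RING1B and mutant RING1A. Each of the 4 conditions had 3 biological replicates, 12 libraries in all, with 14668159 to 27016156 reads on genes each. Rnf2, the gene for RING1B, had normalised read counts between 1295 and 1850 in every library. Ring1, the gene for RING1A, had 166 to 313 in the PRC1CKO libraries and 111 to 182 in the PRC1CPM libraries. Both counts span the whole gene body, including exons outside the deleted and floxed parts, and so do not check the alleles.

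Forkhead factors share a winged-helix domain that binds DNA, and several of them can bind sites in closed chromatin. In embryos FOXA factors act in the endoderm, the node and the floor plate, FOXC factors in mesoderm and vessels, and FOXF factors in the lateral plate mesoderm around the gut, where they respond to Hedgehog signals. FOXD3 acts in ESCs and in the neural crest, and FOXJ1 switches on the genes of motile cilia. In ESCs most developmental genes of this kind have CpG-rich promoters occupied by PRC1, which ubiquitinates histone H2A, and by PRC2, which methylates histone H3 at lysine 27.

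The promoters of 6 of the 9 genes are in the RefSeq promoter table (GRCm38.p6), which covers 250 bases before and 50 after each start. The dinucleotide CG occurred 32 times in these 300 bases at Foxc1, 27 times at Foxf2, 26 at Foxa1, 25 at Foxd3, 22 at Foxa3 and 13 at Foxa2, against a median of 7 over 32851 such windows. At least as many CG were held by 9.52% of windows for Foxc1, 15.5% for Foxf2, 16.9% for Foxa1, 18.4% for Foxd3, 23.1% for Foxa3 and 37.9% for Foxa2. Foxc2, Foxf1 and Foxj1 had no entry. The bases upstream of 4 starts are shown 5′ to 3′ on the strand of the gene with CG in capitals, Foxf2 and Foxa1 as genes whose transcripts rose after OHT and Foxa3 and Foxd3 as genes that were not called. They lie at chr13:31625566-31625815 on the plus strand (Foxf2), chr12:57546112-57546361 on the minus strand (Foxa1), chr7:19023540-19023789 on the minus strand (Foxa3) and chr4:99656049-99656298 on the plus strand (Foxd3).
Foxf2: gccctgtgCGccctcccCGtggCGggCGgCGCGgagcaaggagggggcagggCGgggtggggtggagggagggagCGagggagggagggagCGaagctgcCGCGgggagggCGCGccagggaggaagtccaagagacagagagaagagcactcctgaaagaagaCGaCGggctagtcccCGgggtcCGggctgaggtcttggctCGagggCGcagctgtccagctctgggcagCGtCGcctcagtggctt
Foxa1: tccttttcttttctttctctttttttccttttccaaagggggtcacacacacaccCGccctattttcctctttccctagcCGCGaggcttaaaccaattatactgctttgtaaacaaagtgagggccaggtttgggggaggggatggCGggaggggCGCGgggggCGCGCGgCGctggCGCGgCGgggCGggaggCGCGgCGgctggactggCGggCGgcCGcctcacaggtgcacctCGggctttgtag
Foxa3: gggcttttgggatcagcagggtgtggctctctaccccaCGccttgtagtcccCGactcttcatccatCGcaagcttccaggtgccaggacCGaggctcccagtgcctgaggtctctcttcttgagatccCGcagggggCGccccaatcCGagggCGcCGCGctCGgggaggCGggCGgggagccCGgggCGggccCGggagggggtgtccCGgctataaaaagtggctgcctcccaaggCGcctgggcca
Foxd3: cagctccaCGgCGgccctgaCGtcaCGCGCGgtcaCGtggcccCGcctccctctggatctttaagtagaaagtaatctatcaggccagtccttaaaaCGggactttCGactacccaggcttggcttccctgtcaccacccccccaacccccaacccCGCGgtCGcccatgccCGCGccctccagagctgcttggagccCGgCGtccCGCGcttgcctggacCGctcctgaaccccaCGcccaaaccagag
Both genes that rose and both that were not called thus have CG-rich starts. The forkhead motif TGTTTAC, searched on both strands over the 300 bases, was found at Foxa1 and at none of the other 5, and in 3.65% of all windows. The E-box CACGTG was found at Foxd3 alone (7.15% of windows), and TATAAA at Foxa2 and Foxa3 (13.6% of windows). These are letter matches, and whether a factor binds there was not tested.

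The first question was how the 9 transcripts changed when PRC1 was lost or its catalysis was removed. In each line the same 6 genes, Foxa1, Foxa2, Foxc1, Foxc2, Foxf1 and Foxf2, rose after OHT and none fell. A gene was called where limma on log2(normalised read count + 1), fitted over all 16940 genes tested, gave a fold change over 1.5 with a Benjamini-Hochberg adjusted p under 0.05. Of all genes tested, 16.5% were called higher and 3.09% lower in PRC1CKO, and 13.1% higher and 1.4% lower in PRC1CPM. In each line 7 of the 9 had all 3 OHT-treated libraries above all 3 untreated ones, a pattern shown by 22.1% of all genes in PRC1CKO and 18.7% in PRC1CPM. With the counts of 0 lower, 1 gene (Foxj1) had a lower estimate at an unadjusted p under 0.05 in PRC1CKO by limma, DESeq2 and edgeR, and 0 genes did in PRC1CPM by any of the 3 tools. The median log2 fold change of the 9 was 2.80 in PRC1CKO and 2.14 in PRC1CPM, against 0.12 and 0.10 over all genes tested. Foxa2, Foxc2 and Foxf2 passed the read filter only through the OHT-treated libraries, where they are high. The medians are the values of Foxa2 in PRC1CKO and Foxc2 in PRC1CPM, so their distance from all genes rests on genes that the change let in. Of the 6 genes that passed on untreated libraries alone, Foxa1, Foxc1 and Foxf1 were called higher in each line. Foxa3, Foxd3 and Foxj1 were not. Without this filter, over the 19791 genes with at least 1 read, 6 of the 9 were again called higher in each line. The 9 genes and their medians stayed the same in that fit. In bulk RNA, more cells that express a gene and more RNA per cell cannot be told apart.

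**Figure D1:**
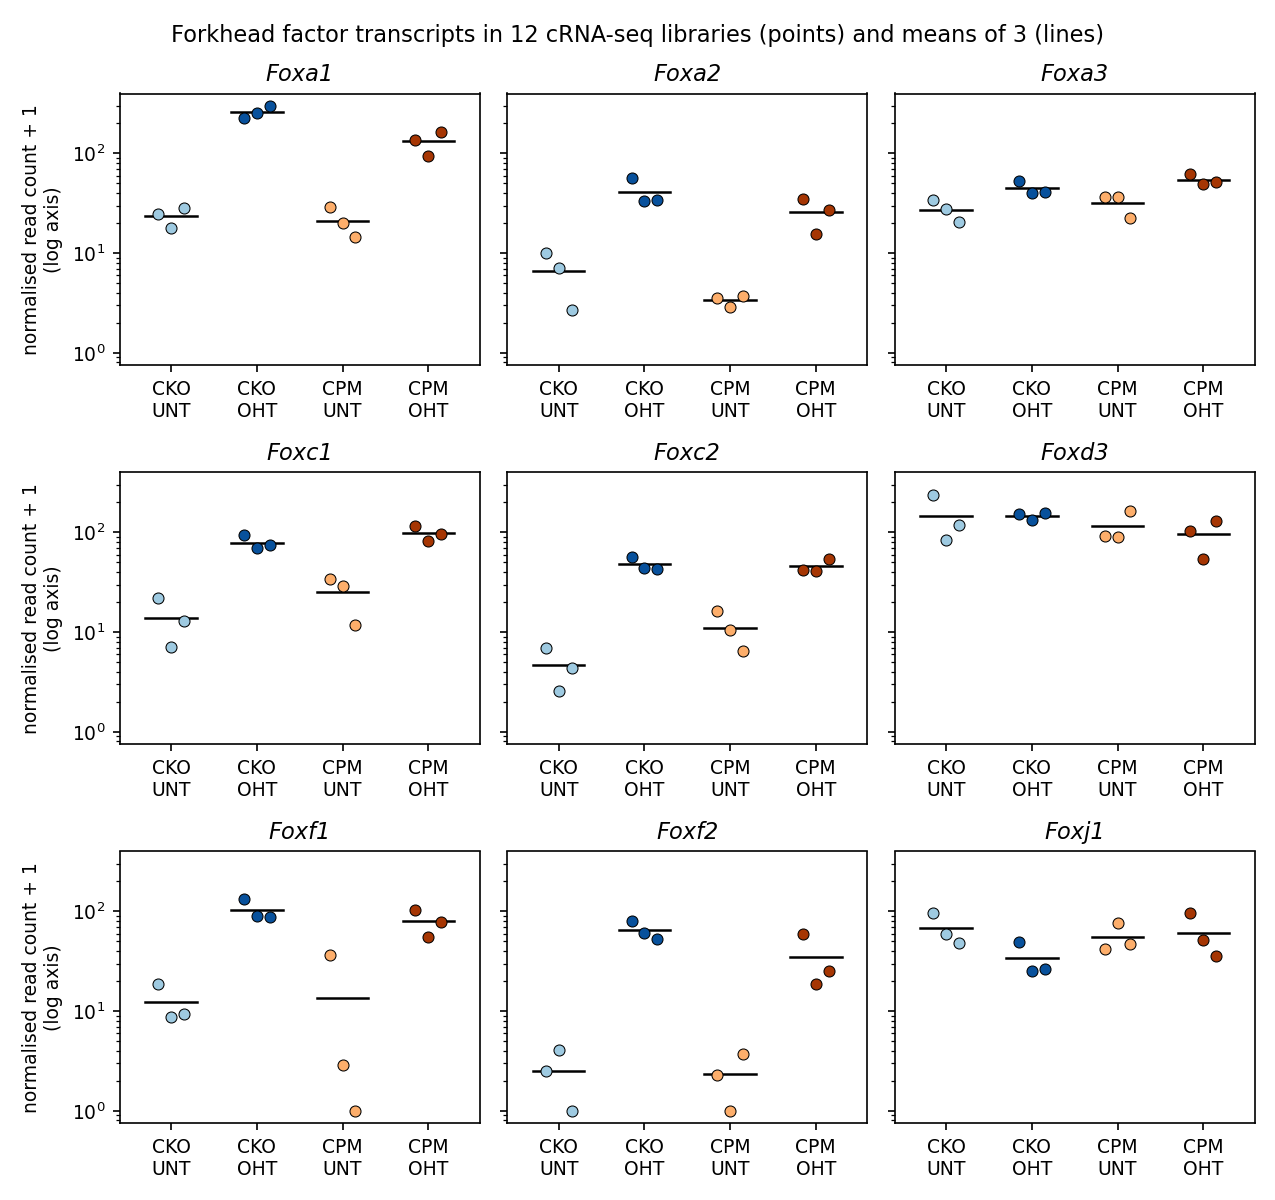
Normalised read count plus 1 on a log axis for the 9 forkhead genes in each of 12 libraries (points), grouped as untreated (UNT) and OHT-treated PRC1CKO and PRC1CPM, with the mean of 3 libraries as a line. Foxd3 and Foxj1 overlap between untreated and treated libraries in both lines, and the other 7 genes do not.

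The FOXA genes encode the pioneer factors of the endoderm. Foxa1 (NM_008259, mm10 chr12:57540632-57546121, minus strand, 2 exons) had normalised read counts of 23.8, 16.9 and 27.1 in untreated PRC1CKO replicates 1 to 3 and of 226, 255 and 299 after OHT. Its counts in PRC1CPM were 28.1, 18.8 and 13.6 before and 135, 94.3 and 164 after OHT. The treated libraries lay far above the untreated ones in both lines, and all 3 treated PRC1CPM libraries lay below all 3 treated PRC1CKO libraries. The log2 fold change was 3.48 ± 0.37 (SE, limma, adjusted p = 1.16e-10) in PRC1CKO and 2.66 ± 0.37 (adjusted p = 2.66e-07) in PRC1CPM.

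Foxa2 (NM_001291067, chr2:148042877-148045464, minus strand, 2 exons), which is also required for the node and floor plate, started lower. It had 8.94, 6.16 and 1.69 in untreated and 55.1, 32.4 and 33.1 in treated PRC1CKO cells. The PRC1CPM libraries had 2.56, 1.88 and 2.71 before and 33.8, 14.7 and 26.3 after OHT. Each untreated PRC1CPM value rests on 2 reads, so the untreated level is known only coarsely. Pooled over replicates, treated cells had 7.92 times (95% counting interval 4.70 to 14.3) the untreated level in PRC1CKO and 10.3 times (4.55 to 29.1) in PRC1CPM. The limma log2 fold changes were 2.80 (adjusted p = 0.000192) and 2.87 (adjusted p = 0.000208), each with an SE of 0.58. These intervals cover counting error only, and 79.6% of the values of 1 to 19 reads were even numbers, so that reads are not all independent and the intervals are too narrow.

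Foxa3 (NM_008260, chr7:19013283-19023539, minus strand, 2 exons), which acts later in liver and gut, moved much less. It had 32.8, 26.9 and 19.4 before and 51.5, 38.9 and 40.1 after OHT in PRC1CKO. The counts in PRC1CPM were 35.8, 35.8 and 21.7 before and 60.8, 48.7 and 50.4 after. The groups did not overlap in either line, yet the gene was not called, with limma log2 differences of 0.72 (95% interval -0.11 to 1.55, adjusted p = 0.266) and 0.79 (-0.04 to 1.62, adjusted p = 0.256). Among the 3 FOXA genes the upper bounds for Foxa3 lay below the lower bounds for Foxa1 in both lines (2.73 and 1.91).

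The FOXC genes act in paraxial mesoderm, kidney, eye and vessels. Foxc1 (NM_008592, chr13:31806646-31810635, plus strand, 1 exon) had 20.9, 6.16 and 11.8 before and 92.2, 68.5 and 73.3 after OHT in PRC1CKO. PRC1CPM libraries held 33.2, 28.3 and 10.8 before and 116, 82.0 and 96.4 after. Treated and untreated libraries did not overlap, and the log2 fold changes were 2.63 (adjusted p = 5.07e-06) and 2.10 (adjusted p = 0.000337), each with an SE of 0.44.

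Foxc2 (NM_013519, chr8:121116171-121118894, plus strand, 1 exon), needed for lymphatic vessels and the aortic arch, had 5.96, 1.54 and 3.38 before OHT in PRC1CKO, which are 4, 2 and 4 reads, and 56.0, 42.6 and 41.9 after. For PRC1CPM the counts were 15.3, 9.42 and 5.42 before and 40.5, 40.2 and 53.7 after. The treated libraries of the lines overlapped, with means of 46.8 ± 7.99 and 44.8 ± 7.68 (SD, n = 3). The log2 fold change was 3.48 (adjusted p = 4.66e-07) in PRC1CKO and 2.14 (adjusted p = 0.00199) in PRC1CPM, each with an SE of 0.52.

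The FOXF genes encode factors of the splanchnic mesoderm that surrounds the gut and lung. Foxf1 (NM_010426, chr8:121084386-121088154, plus strand, 2 exons) had 17.9, 7.70 and 8.46 before and 134, 88.9 and 87.2 after OHT in PRC1CKO. In PRC1CPM it had 35.8, 1.88 and 0 before, from 28, 2 and 0 reads, and 103, 54.9 and 76.7 after. Treated libraries lay above untreated ones in both lines, but untreated PRC1CPM replicate 1 stood far from the other 2. That library also stood apart in the summed level of fibroblast markers, at 14510 against 3717 and 4633. Treated PRC1CPM replicate 1 did so too, at 14757 against 4510 and 6201. A link of these markers to Foxf1 was not tested. The log2 fold change was 3.14 (adjusted p = 0.000113) in PRC1CKO and 4.02 (adjusted p = 3.05e-06) in PRC1CPM, each with an SE of 0.63. Without untreated PRC1CPM replicate 1 the PRC1CPM value was 5.50, and with DESeq2 it was 2.65 and was not called (adjusted p = 0.0748).

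Foxf2 (NM_010225, chr13:31625816-31631406, plus strand, 2 exons) was close to undetected before treatment and showed the largest log2 fold change of the 9 in PRC1CKO. It had 1.49, 3.08 and 0 in untreated PRC1CKO libraries, 5 reads in all, and 78.6, 59.2 and 52.3 after OHT. In PRC1CPM it had 1.28, 0 and 2.71 before, 3 reads in all, and 58.9, 17.8 and 24.1 after. Pooled over replicates, the treated level was 39.9 times the untreated one in PRC1CKO (95% counting interval 16.8 to 124) and 28.1 times in PRC1CPM (9.37 to 139). These intervals too cover counting error only and are too narrow, because reads are not all independent. Single libraries also weigh heavily on the ratios. In PRC1CKO 1 library held 4 of the 5 untreated reads, and in PRC1CPM 1 held 2 of the 3. Treated PRC1CPM replicate 1, where fibroblast markers also stood apart, lay far above the other treated libraries. The limma log2 fold changes, which the pseudocount of 1 holds down at so few reads, were 4.87 (adjusted p = 2.39e-08) and 3.90 (adjusted p = 6.73e-06), each with an SE of 0.64. They ranked 41st and 42nd from the highest of 16940 genes in PRC1CKO and PRC1CPM. These ranks are descriptive only, since Foxf2 passed the read filter through its treated libraries and the pseudocount weighs on its value.

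Foxd3 and Foxj1 were the most abundant of the 9 per length of gene body or of exons before treatment and were not called in either line. Foxd3 (NM_010425, chr4:99656299-99658671, plus strand, 1 exon), which is active in ESCs, had 234, 83.1 and 118 before and 151, 131 and 155 after OHT in PRC1CKO. Counts in PRC1CPM were 92.1, 89.5 and 164 before and 102, 53.3 and 130.4 after. The groups overlapped in both lines, and the log2 differences were 0.14 (95% interval -0.58 to 0.85, limma adjusted p = 0.868) and -0.30 (-1.02 to 0.41, adjusted p = 0.747). The interval allows a change of less than 2-fold upward in each line and just over 2-fold downward in PRC1CPM.

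Foxj1 (NM_008240, chr11:116330704-116335354, minus strand, 3 exons) had 95.3, 58.5 and 47.4 before and 48.8, 24.1 and 25.3 after OHT in PRC1CKO. In PRC1CPM it had 40.9, 75.4 and 46.1 before and 95.6, 50.3 and 35.1 after. In PRC1CKO 2 of the 3 treated libraries lay below all untreated ones and the third lay among them. In PRC1CPM the groups overlapped, with treated replicate 1 above all untreated libraries, replicate 3 below them and replicate 2 among them. The log2 difference was -1.03 in PRC1CKO (95% interval -1.86 to -0.19, limma adjusted p = 0.0789, not called) and 0.08 in PRC1CPM (-0.76 to 0.92, adjusted p = 0.962). Foxj1 in PRC1CKO was called lower with TMM scaling (-1.14, adjusted p = 0.0249), without the genomic DNA correction (-1.17, adjusted p = 0.0434), without treated replicate 1 (-1.34, adjusted p = 0.0367) and with the replicate block (adjusted p = 0.00342), although the PRC1CKO replicates did not meet the pairing check.

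**Figure D2:**
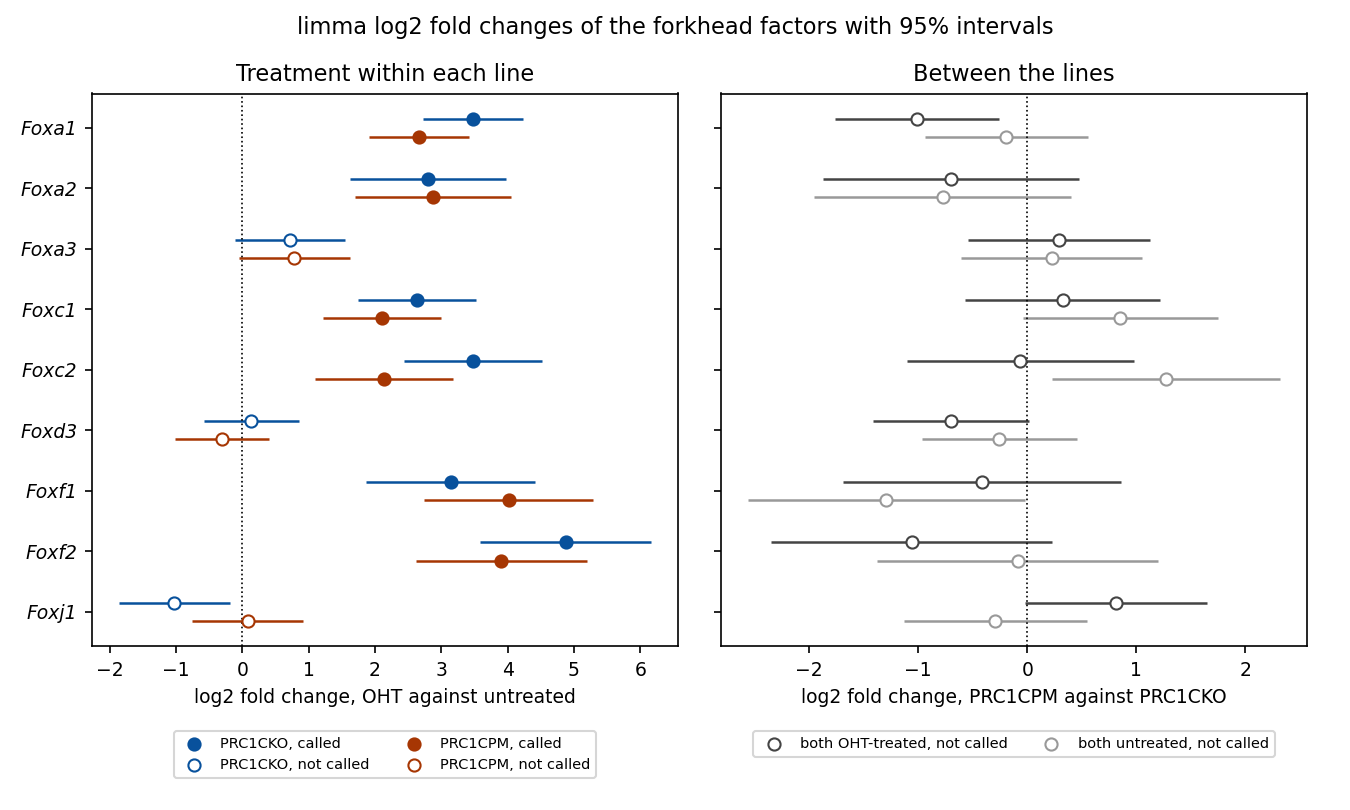
limma log2 fold changes with 95% intervals for the 9 genes, on the left OHT against untreated in PRC1CKO and PRC1CPM and on the right PRC1CPM against PRC1CKO within treated and within untreated cells. Filled points were called; 6 genes are filled in both lines on the left, and none is filled on the right.

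The second question was whether removing catalysis alone gave the same levels as removing the complex. None of the 9 genes was called between OHT-treated PRC1CPM and OHT-treated PRC1CKO cells, where 1.47% of all genes were called in either direction by limma. Foxa1 had an unadjusted p under 0.05 by limma, and edgeR called 0 of the 9 while DESeq2 called 1, again Foxa1. By DESeq2 and edgeR Foxj1 was also at an unadjusted p under 0.05, with higher estimates in PRC1CPM (0.88 in each). Foxa1 in treated PRC1CPM cells had a mean of 131 ± 35.2, which is 50.4% of the 260 ± 36.8 (SD, n = 3) in treated PRC1CKO cells. Its log2 difference was -1.01 (95% interval -1.76 to -0.26, limma adjusted p = 0.205), and DESeq2 called it lower in PRC1CPM (-0.99, adjusted p = 0.0344), as did TMM scaling (-1.11, adjusted p = 0.0212). With the replicate number as a block, Foxa1 (adjusted p = 0.00520) and Foxd3 (-0.70, adjusted p = 0.0212) were both called lower in PRC1CPM, where 1363 of all genes were called against 249 without the block. All 3 treated PRC1CPM libraries lay below all 3 treated PRC1CKO libraries for Foxa1 (at most 164 against at least 226). For Foxd3 they did so only narrowly (130.4 against 131.4), and limma without the block did not call it (adjusted p = 0.474). The share of all genes with this pattern was not counted.

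Foxf2 stood at 53.0% of the PRC1CKO mean after treatment, with a log2 difference of -1.06 (95% interval -2.35 to 0.23), and at 33.0% without treated PRC1CPM replicate 1. Foxa2 stood at 61.9%, Foxd3 at 65.4%, Foxf1 at 75.8% and Foxc2 at 95.7%, while Foxa3 (123%), Foxc1 (126%) and Foxj1 (184%) had higher means in PRC1CPM. Without the block the intervals of these differences all included 0, and reached a change of more than 2-fold in at least 1 direction for every one of these 8 genes. The median log2 difference of the 9 genes was -0.41, against 0.10 over all genes tested.

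Between the untreated lines none of the 9 was called, with 2.69% of all genes called in either direction. Foxc2 had a log2 difference of 1.27 (limma adjusted p = 0.215) and Foxf1 of -1.29 (adjusted p = 0.343), each at an unadjusted p under 0.05, and neither DESeq2 nor edgeR called any of the 9, with 2 genes (Foxc1 and Foxc2) at an unadjusted p under 0.05 in each. The direction for Foxf1 depended on the measure, since its mean was 12.6 in PRC1CPM against 11.3 in PRC1CKO and DESeq2 and edgeR gave 0.16 and 0.18. Its estimate was set by 1 library, and without untreated PRC1CPM replicate 1 it was -2.77 (adjusted p = 0.000117). Without untreated PRC1CKO replicate 1, Foxc2 was called higher in PRC1CPM (1.63, adjusted p = 0.0434). With the replicate number as a block, Foxc2 was called higher (adjusted p = 0.0360) and Foxf1 lower (adjusted p = 0.0102), where 1884 of all genes were called against 455 without the block.

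The difference between the responses of the lines, tested as a line by treatment interaction, was called for none of the 9 genes and for 0.0236% of all genes. None had an unadjusted p under 0.05 by limma, and DESeq2 and edgeR each called 0 with 1 (Foxc2) at an unadjusted p under 0.05. The estimates farthest from 0 were for Foxc2 (-1.34, 95% interval -2.81 to 0.14) and Foxj1 (1.11, -0.08 to 2.29). A difference of 2-fold or more between the lines' responses lies inside these intervals. The contrasts between the lines use the same libraries as the contrasts within them.

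Levels were set against each other per kilobase of gene body, the span over which reads were counted. Before treatment Foxd3 led in both lines, at 61.2 normalised reads per kb in PRC1CKO and 48.6 in PRC1CPM (means, n = 3). Foxj1 followed at 14.4 and 11.6, and neither gene's libraries overlapped those of the next gene. Between them and Foxf2, last at 0.272 and 0.238 per kb, lay the other 6 genes, which in PRC1CKO ran from 4.12 for Foxa1 to 1.33 for Foxc2 with each neighbour in the order overlapping the next.

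After OHT the order per kilobase of gene body changed below Foxd3, which stayed first at 61.5 in PRC1CKO and 40.2 in PRC1CPM. In PRC1CKO Foxa1 came next at 47.4 per kb, then Foxf1 at 27.4 and Foxc1 at 19.6, and the libraries of these 4 genes did not overlap from one to the next. Foxc1 overlapped Foxc2 (17.2), which overlapped Foxa2 (15.6), which overlapped Foxf2 (11.3). Foxj1 (7.04) and Foxa3 (4.24) came last. In treated PRC1CPM cells Foxc1 (24.6), Foxa1 (23.9) and Foxf1 (20.8) followed Foxd3, and every gene's libraries overlapped those of its neighbour in the order. The order turned on this choice of length. Per kilobase of RefSeq exons, chosen after seeing the data, Foxa1 led in treated PRC1CKO cells at 81.8, above Foxd3 at 61.5 with no overlap, and in treated PRC1CPM cells at 41.3, beside Foxd3 at 40.2 with overlap. Foxa3 was then no longer last, at 21.3 in treated PRC1CKO cells and 26.1 in treated PRC1CPM cells.

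The forkhead family holds 35 further genes in the table, of which 28 could be tested. Of these, 9 rose and 1 fell in PRC1CKO, and 7 rose and 0 fell in PRC1CPM (limma). Of all genes tested, 16.5% were called higher and 3.09% lower in PRC1CKO, and 13.1% and 1.4% in PRC1CPM. Among the risers, Foxe1, Foxd2 and Foxb2 had fewer than 10 reads in every untreated library. They passed the read filter only through the OHT-treated libraries, so the counts of rises hold genes that the change let in. The 1 gene with a lower estimate at an unadjusted p under 0.05 in PRC1CPM was Foxr2 (log2 difference -1.23, adjusted p = 0.0505), which DESeq2 and edgeR called lower. With the replicate block, 11 rose and 1 (Foxr2) fell in PRC1CPM. The medians were 0.54 and 0.42, against 0.12 and 0.10 over all genes. All 7 that rose in PRC1CPM also rose in PRC1CKO.

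Foxe1, a thyroid and pharyngeal factor, rose from a mean of 1.08 to 46.7 in PRC1CKO (log2 fold change 4.63) and from 4.88 to 32.2 in PRC1CPM (2.66). Foxd2 rose by 4.56 and 3.06 on the log2 scale, and its relative Foxd1, a kidney stroma factor, by 2.80 and 2.26. Foxp2, expressed in brain and lung, rose by 2.59 and 1.85, and Foxl2, the ovarian factor, by 2.18 and 1.97, with 1 library deciding the call of Foxl2 in each line (untreated PRC1CKO replicate 3 and treated PRC1CPM replicate 1). Foxb2 had 0 reads in untreated PRC1CKO cells and was 12.9-fold higher after OHT over an assumed floor of 3 reads across the 3 libraries. That ratio leaves out the error of the treated reads and is no strict lower bound. Foxb2 rose by 3.04 in PRC1CPM.

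Foxq1 rose from a mean of 35.1 to 102 in PRC1CKO (adjusted p = 0.00399, not called without untreated replicate 3 or without treated replicate 1) and had a difference of 0.95 in PRC1CPM (adjusted p = 0.116). Foxh1, a partner of SMAD proteins in Nodal signalling, was called in PRC1CKO at 0.75 (adjusted p = 0.0494), a call lost under 12 of 20 alternatives, and was at 0.16 in PRC1CPM. Foxr2 fell by 2.55 in PRC1CKO. Foxn3 and Foxo3 were among the most abundant of the 35, Foxn3 with means of 3762 before and 4386 after OHT in PRC1CKO, not called different, and Foxo3 with 4558 after OHT.

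**Figure D3:**
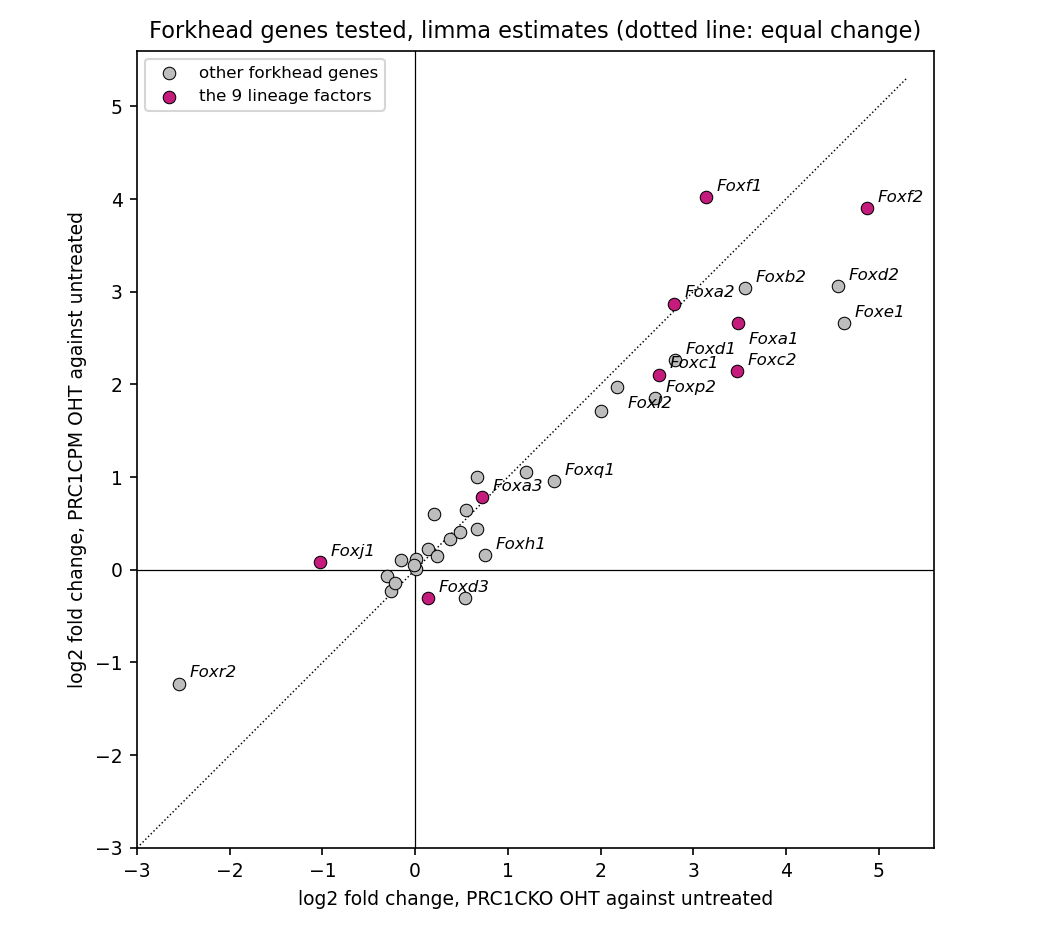
limma log2 fold change after OHT in PRC1CKO (x axis) and PRC1CPM (y axis) for the 9 lineage factors and 27 of the 28 other forkhead genes tested, with a dotted line where both would be equal. The lines' contrasts use separate libraries; Foxb2 has 0 reads in untreated PRC1CKO cells, so its x position depends on the pseudocount of 1.

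Several of the 9 lie close to one another or to other genes. Foxf1 and Foxc2 are 28.016 kb apart on chromosome 8, and Foxf2 and Foxc1 are 175.239 kb apart on chromosome 13, and all 4 rose in both lines. Within 100 kb of the 9 genes lay 25 other rows of the table, of which 21 were tested. In PRC1CKO 5 of these rose and 0 fell, and in PRC1CPM 2 rose and 0 fell (limma). Of all genes tested, 16.5% were called higher in PRC1CKO and 13.1% in PRC1CPM. The medians of the neighbours were 0.16 and 0.027, near the 0.12 and 0.10 of all genes tested. Whether neighbours rose more often than other genes was not tested. The 1 neighbour with a lower estimate at an unadjusted p under 0.05 was in each line Ubald2, 98.7 kb from Foxj1, at -0.64 (adjusted p = 0.0619) in PRC1CKO, where DESeq2 called it and edgeR did not, and at -0.66 (adjusted p = 0.0620) in PRC1CPM, where neither did but the replicate block gave a call. With the block Foxq1 was also called in PRC1CPM.

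The RNA 4921506M07Rik, 17.993 kb from Foxa1, moved by about as much as Foxa1 itself. It had 28.3, 32.3 and 18.6 before and 345, 283 and 347 after OHT in PRC1CKO, and 28.1, 28.3 and 19.0 before and 243, 203 and 264 after in PRC1CPM. Its log2 fold changes were 3.60 (adjusted p = 3.79e-12) and 3.20 (adjusted p = 3.84e-10), and the treated libraries lay far above the untreated ones in both lines.

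Fendrr, a long noncoding RNA on the opposite strand from Foxf1 with a gap of 1.275 kb, had 14.9, 13.9 and 15.2 before and 30.7, 43.5 and 34.9 after OHT in PRC1CKO. In PRC1CPM it had 43.5, 36.8 and 21.7 before and 40.5, 42.5 and 15.3 after. It was called in PRC1CKO (1.24, adjusted p = 0.0493), a call lost under 10 of 20 alternatives, and was at -0.12 (adjusted p = 0.947) in PRC1CPM, where its libraries overlapped and Foxf1 rose. Foxl1, the third forkhead gene beside Foxf1 and Foxc2 and 8.79 kb from Foxc2, had too few reads to be tested. It had 0 reads in all 3 untreated PRC1CKO libraries and 8, 7 and 6 after OHT, 6.62-fold higher over the same assumed floor. In PRC1CPM it had 0, 4 and 0 before and 0, 4 and 8 after OHT.

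Gmds, a GDP-mannose dehydratase gene 8.95 kb from Foxc1, rose by 0.99 in PRC1CKO (adjusted p = 0.000632) and was at 0.55 in PRC1CPM (adjusted p = 0.107). Evpl, the envoplakin gene 92.612 kb from Foxj1, rose by 1.46 in PRC1CKO and by 1.00 in PRC1CPM, where the call was lost without a read filter, without untreated replicate 3 and without treated replicate 1. The other tested neighbours were not called in either line, among them Sympk at 0.837 kb from Foxa3 and Rnf157 at 0.99 kb from Foxj1, save Foxq1 at 64.841 kb from Foxf2.

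**Figure D4:**
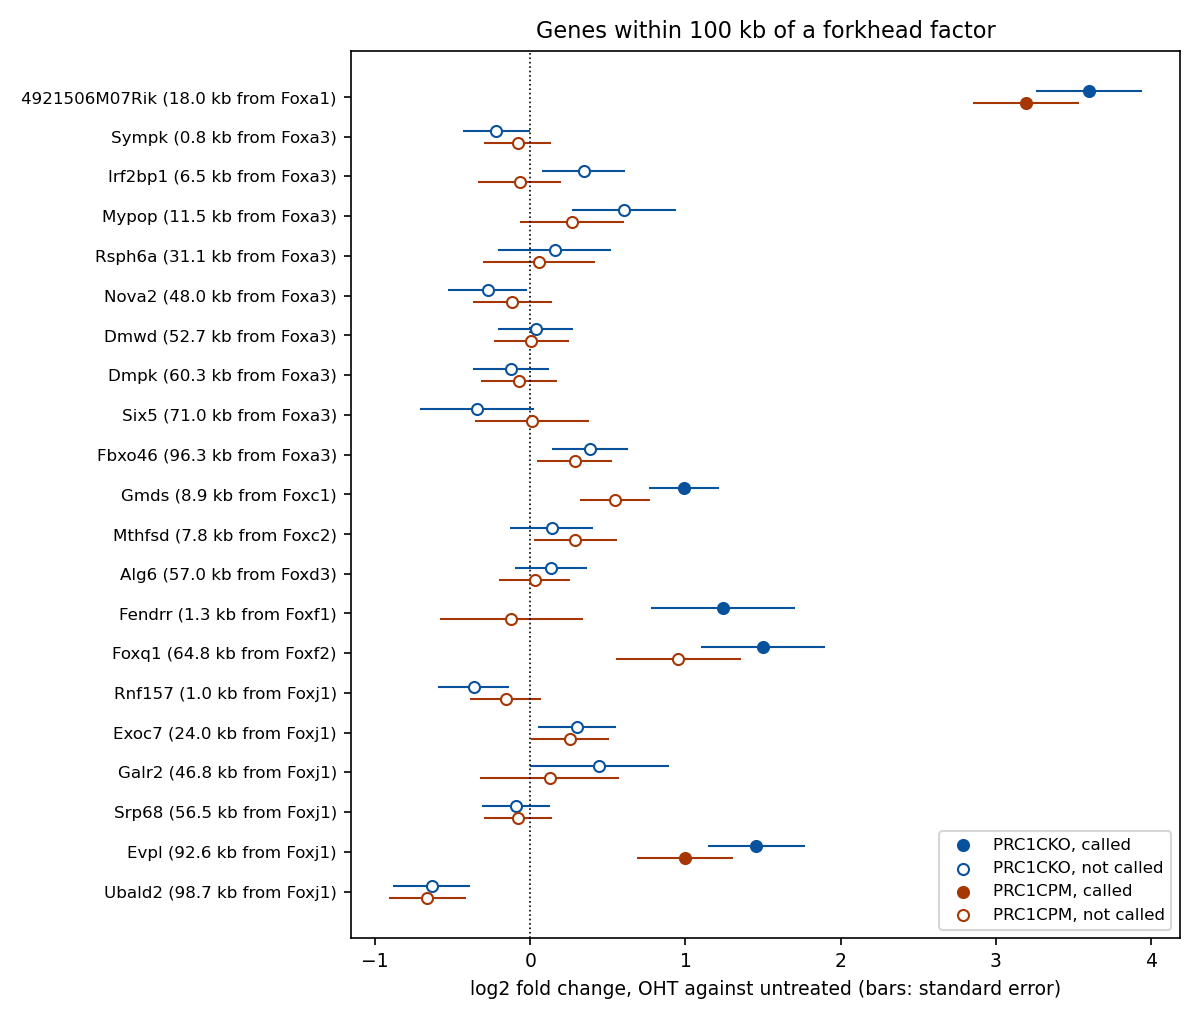
limma log2 fold change after OHT, with its standard error as a bar, for the 21 tested genes within 100 kb of a forkhead gene, labelled with the distance to the nearest of the 9. Filled points were called; 4921506M07Rik lies apart from the rest, above 3 in both lines, and most neighbours lie near 0.

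Genes linked to the tissue or process of each factor, not all of them its targets, were read from lists chosen with earlier results known. Of all genes tested, 16.5% were called higher and 3.09% lower in PRC1CKO, and 13.1% and 1.4% in PRC1CPM. The medians of all genes tested were 0.12 and 0.10. Some genes with few untreated reads, such as Zic1 and Tfap2b below, passed the read filter only through treated libraries. Counts of rises thus hold genes that the change let in. Among 9 tested genes of the endoderm and liver, the tissues of FOXA factors, 6 rose and 0 fell in each line, with medians of 1.70 in PRC1CKO and 1.17 in PRC1CPM. Gata6, a zinc finger factor of early endoderm, rose by 2.96 and 2.26, its relative Gata4 by 2.14 and 1.63, and Prox1, a factor of liver and lymphatic endothelium, by 2.00 and 1.55. Hnf4a, a factor of mature hepatocytes, had estimates of -1.04 in PRC1CKO and -1.16 in PRC1CPM and was not called by limma. In each line 2 genes of the list had lower estimates at an unadjusted p under 0.05, and DESeq2 and edgeR each called 2 lower in PRC1CPM and 0 in PRC1CKO, while TMM scaling and the replicate block each gave 2 lower calls in each line, and the 6 libraries of PRC1CPM by themselves gave 2. With the block 7 rose in PRC1CPM, Hhex being added. The secreted liver and endoderm products Ttr, Afp, Alb, Apoa1 and Cer1 were untested, with at most 10 reads in any library.

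Among 13 tested Hedgehog pathway and midline genes, 5 rose and 2 fell in PRC1CKO and 3 rose and 1 fell in PRC1CPM, with medians of 0.30 and 0.21. The ligand genes Dhh and Ihh rose, Dhh by 2.57 and 2.38 and Ihh by 1.82 and 3.40, the PRC1CKO call of Ihh being lost with a pseudocount of 0.1 and without untreated replicate 3, treated replicate 1 or treated replicate 2. T, the Brachyury gene of the notochord and primitive streak, rose by 1.88 and 1.51, and both calls were lost with DESeq2, the PRC1CKO call also without untreated replicate 3 and the PRC1CPM call also without a filter, untreated replicate 3 or treated replicate 1. Ptch1, a receptor and target of the pathway, fell by 1.75 in PRC1CKO and by 1.23 in PRC1CPM, and Gli1, another target, fell by 1.16 in PRC1CKO with a difference of -0.65 in PRC1CPM (adjusted p = 0.0554). Hhip, a target that binds the ligands, rose by 1.70 in PRC1CKO (adjusted p = 7.33e-06) with a difference of 0.65 in PRC1CPM, and Gli3, a transcription factor of the pathway, was called at 0.75 in PRC1CKO, a call lost without the genomic DNA correction, untreated replicate 3 or treated replicate 1. Targets moved in both directions in PRC1CKO. Ptch1, Gli1, Hhip and Gli3 were named after their values were seen. With the replicate block 2 genes of the list fell in PRC1CPM (Ptch1 and Gli1), and Hhip was also called higher there.

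Of 25 motile cilium genes in the table, a list not limited to targets of FOXJ1, 23 were tested. In PRC1CKO 2 rose and 3 fell, and in PRC1CPM 2 rose and 1 fell, with medians of -0.10 and 0.37, and TMM scaling gave 5 higher and 4 lower in PRC1CKO. Zmynd10, which assembles dynein arms, fell by 2.25 and 1.56 (the PRC1CPM call was lost under 6 of 20 alternatives). Ccno and Mcidas, which act in centriole amplification, were called higher in PRC1CKO at 1.74 and 1.48, the latter at an adjusted p of 0.0497 that was lost under 11 of 20 alternatives. Ccno also rose in PRC1CPM, by 1.19, a call lost without untreated replicate 2, treated replicate 1 or treated replicate 3.

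Among 14 tested neural crest factors that act beside FOXD3, 13 rose and 0 fell in PRC1CKO, where 16.5% of all genes tested rose. In PRC1CPM, where 13.1% of all genes tested rose, 10 rose and 0 fell. The medians were 2.98 and 1.47, although Foxd3 itself was not called. With the replicate block 12 rose in PRC1CPM, Sox9 and Pax7 being added. Fewer rose there with DESeq2, with a pseudocount of 0.1 and with the 6 libraries of the line by themselves (9 each). Without a filter 7 rose in PRC1CPM and 11 in PRC1CKO. Pax3 rose by 5.97 and 4.03 and Zic1 by 5.35 and 4.29. Zic1 and Tfap2b passed the read filter only through treated libraries, where they are high. Tfap2b had 0 reads in untreated PRC1CKO cells and was 20.5-fold higher after OHT over the same assumed floor. Its difference in PRC1CPM was 1.57 (adjusted p = 0.246). No gene of this list or of the next had a lower estimate at an unadjusted p under 0.05 by limma, and DESeq2 and edgeR called 0 lower. Of 15 tested mesoderm and endothelial genes, 10 rose and 0 fell in PRC1CKO and 9 rose and 0 fell in PRC1CPM, with medians of 1.74 and 1.49. With the block 12 rose in PRC1CPM, Pdgfrb, Meox1 and Bmp4 being added, while with DESeq2 7 rose there. Hand2, a heart and limb factor, had 0 reads in untreated PRC1CKO cells and was 31.9-fold higher after OHT over the same assumed floor. It rose by 2.82 in PRC1CPM, a call lost with DESeq2 and without treated replicate 1. Tbx1, a pharyngeal factor, rose by 4.54 and 3.03, and Tal1, a blood and endothelial factor, by 3.37 and 2.01.

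Markers of the labelled cell type and of cells it might be mixed with were read in the same way, beside the same shares of all genes. The ESC markers Pou5f1 and Nanog stayed abundant, with means of 3126 and 4542 in treated PRC1CKO cells and 3860 and 5658 in treated PRC1CPM cells. Of 10 ESC markers 3 fell in PRC1CKO (Fgf4 by 1.06, Sox2 by 0.89, Utf1 by 0.79) and 1 fell in PRC1CPM (Fgf4, by 0.85, lost without treated replicate 2), and 0 rose by limma, DESeq2 or edgeR or had a higher estimate at an unadjusted p under 0.05. Their summed level went from 85422 to 64414 in PRC1CKO and from 75642 to 68031 in PRC1CPM (means, n = 3), with Tdgf1 the most abundant. Without the genomic DNA correction the PRC1CPM median of -0.20 turned to 0.095, and 2 of the markers were called higher there and 0 lower.

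Primitive endoderm markers, 8 tested, had 4 higher and 1 lower in PRC1CKO and 5 higher and 0 lower in PRC1CPM, with summed levels from 12927 to 15667 and from 14719 to 17012, Sparc being the most abundant and not called. Gata6 and Gata4, named above, are also in this list, and Cubn, an endocytic receptor, fell by 2.83 in PRC1CKO and was the 1 gene lower at an unadjusted p under 0.05 in PRC1CPM (-1.04), called there by edgeR and with the replicate block and not by DESeq2. Of 6 tested trophoblast markers 5 rose in PRC1CKO and 4 in PRC1CPM (3 and 2 with DESeq2, 3 and 3 with a pseudocount of 0.1, 6 and 5 with the replicate block) and 0 fell by any of the 3 tools or had a lower estimate at an unadjusted p under 0.05, with summed levels from 338 to 961 (the 338 being 219.8 without untreated replicate 1) and from 365 to 886, Krt7 the most abundant and Elf5 untested. Gata3 rose by 3.26 and 2.02, Hand1 by 2.68 and 1.97 (the PRC1CPM call was lost with DESeq2) and Gcm1 by 1.70 in PRC1CKO, the last lost under 6 of 20 alternatives. Of 5 tested fibroblast markers 1 rose (Thy1, 0.65, lost under 9 of 20 alternatives) and 1 fell (Postn, -2.13, lost without untreated replicate 1 or treated replicate 3) in PRC1CKO and 0 were called in PRC1CPM, where 1 (Col1a2, -0.81) had a lower estimate at an unadjusted p under 0.05, called by edgeR and with the replicate block and not by DESeq2. Dcn and Lum were untested, Dcn with means of 5.61 before and 0.617 after OHT in PRC1CKO and of 7.63 and 0.644 in PRC1CPM (at most 12 reads in a library), and Lum with at most 2 reads in any library. Their summed level, mostly Col1a1, had means of 3473 ± 1958 before and 3521 ± 405 after OHT in PRC1CKO and of 7620 ± 5984 and 8489 ± 5493 in PRC1CPM (SD, n = 3). Replicate 1 stood apart in PRC1CPM, at 14510 before and 14757 after OHT, and without it the means were 4175 and 5355. The part of other cell types in the forkhead changes was not tested.

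**Figure D5:**
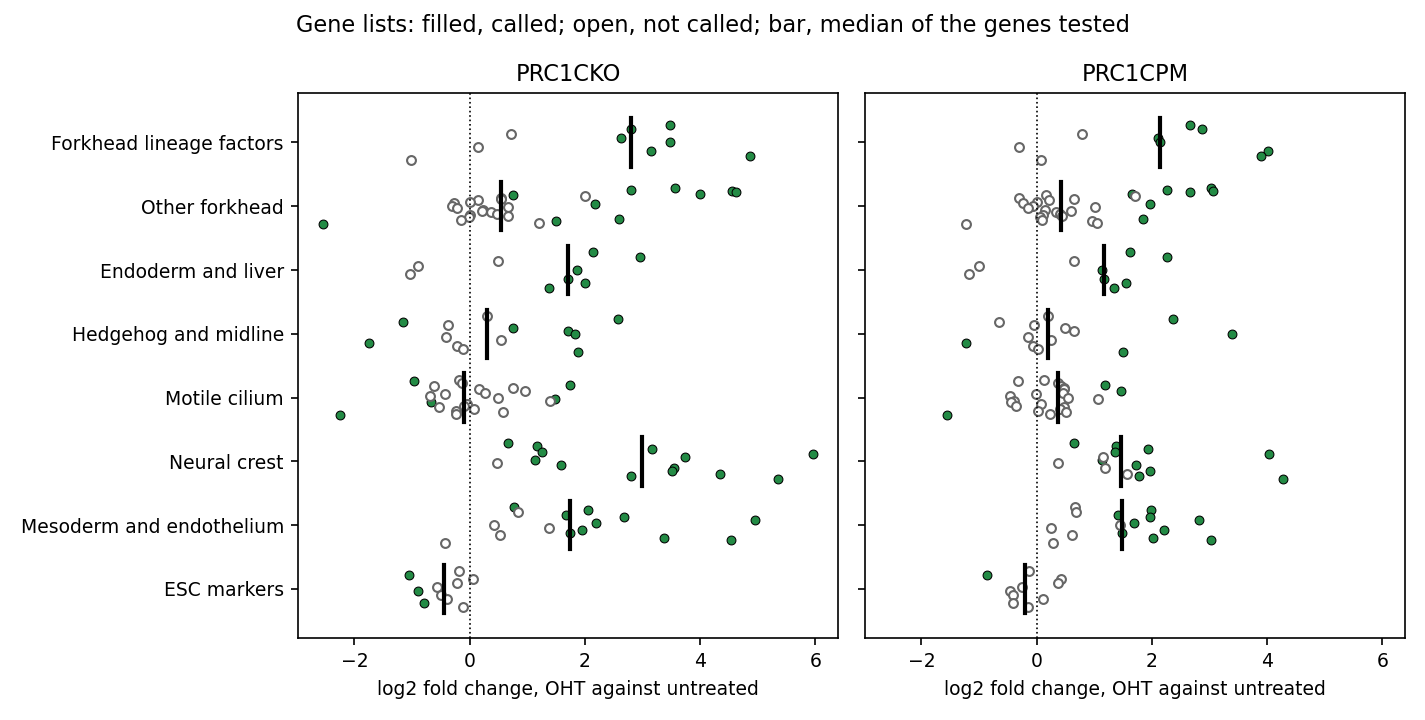
limma log2 fold change after OHT for the tested genes of each list in PRC1CKO (left) and PRC1CPM (right), with called genes filled, the others open, and the median as a bar. The forkhead lineage factors have medians of 2.80 and 2.14, and the ESC markers of -0.45 and -0.20.

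The genes whose profile over the 12 libraries was most like each factor were found by Pearson's r of log2 values, as a description of libraries that share 4 conditions. Foxa1 was nearest to Dio3 (r = 0.989), Foxa2 to Adarb2 (r = 0.988) and Foxa3 to Stard8 (r = 0.975). Foxc1 was nearest to Ppapdc1a (r = 0.982), Foxc2 to Tnnt3 (r = 0.992), Foxf1 to Prdm12 (r = 0.968) and Foxf2 to Gfra1 (r = 0.985). Foxd3 was nearest to Fancf (r = 0.905) and Foxj1 to Synj2 (r = 0.872), both below the values of the other 7 genes.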

How the data were processed

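Total RNA was depleted of ribosomal RNA and sequenced as paired reads from a stranded library. The authors discarded ribosomal DNA reads with Bowtie 2, mapped the rest to mm10 and dm6 with STAR and then Bowtie 2, kept unique reads without PCR duplicates and counted them over 20633 refGene gene bodies. The deposited normalised read counts, a signal, are these reads divided by DESeq2 size factors from the Drosophila reads, corrected by genomic DNA sequencing of the same cell mixes. The table's columns of the authors' fold changes and adjusted p-values for each line, and its list of partially derepressed genes, were not used.

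Whole reads were recovered from the steps of each column, and 100% of values were whole within 0.02. The 16940 genes that reached 10 reads in 3 or more libraries were fitted with limma 3.58.1 in R 4.3.3 on log2(normalised read count + 1), with 1 mean per condition over all 12 libraries, an intensity trend and Benjamini-Hochberg adjustment. Fold changes of low genes can therefore be understated. That of Foxf1 in PRC1CPM was instead larger by limma (4.02) than by DESeq2 (2.65). Calls needed a fold change over 1.5 at an adjusted p under 0.05 (for the interaction, the adjusted p alone). Alternatives were DESeq2 1.42.0 and edgeR 4.0.16 on the recovered reads, TMM, spike-in totals without the genomic DNA correction, no filter, a pseudocount of 0.1, a replicate block, the 6 libraries of a line by themselves, and leaving out each library in turn. Levels per kb of RefSeq exons were added after seeing the data. Deviations of same-numbered libraries correlated at 0.246 to 0.438 in PRC1CPM, 0.140 to 0.225 between treated lines, 0.186 to 0.377 between untreated lines and 0.0988 to 0.179 in PRC1CKO, so in the first 3 the numbers were taken to pair the samples from the data, every pair being over 0.1, and blocked calls that differ are given beside the counts. Fits were tested on simulated data, and no result of that test is given or used here. Pooled ratios carry exact conditional 95% counting intervals, which take reads as independent and are too narrow for low counts.

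Members and lists were chosen with earlier results of these data known. Outside the 9, the text names the 10 called forkhead genes with the largest change in PRC1CKO (1 of which is not reported here), the 3 such genes per list, and genes within 100 kb. The p-values measure the spread between biological replicates of 1 clone per line.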

Additional observations from a re-analysis of the deposited data

How the results depend on the processing

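The 6 higher calls of PRC1CKO and the 6 of PRC1CPM kept their direction under every alternative and their call under every one except Foxf1 in PRC1CPM with DESeq2. Scaling moved the median of all genes from 0.115 in PRC1CKO and 0.0996 in PRC1CPM to -0.0020 and -0.0073 with TMM, and to -0.0285 and 0.398 without the genomic DNA correction. Over all genes, PRC1CPM had 2463 calls (2226 higher and 237 lower) and 3703 without the correction (3628 and 75). In PRC1CKO the split without the correction was 2207 higher and 698 lower. Higher and lower calls went with TMM from 2787 and 524 to 2845 and 1133 in PRC1CKO and from 2226 and 237 to 2396 and 595 in PRC1CPM. Between treated lines 249 genes were called (212 higher and 37 lower in PRC1CPM), against 430 with DESeq2, 784 with TMM (523 and 261), 524 without the correction (501 and 23) and 157 without a filter. Between untreated lines 455 were called (374 and 81), against 1052 with TMM (745 and 307), while without the correction the split was 143 and 165. The interaction was called for 4 genes, 15 with DESeq2, 14 with TMM, 0 without a filter and 1 with a pseudocount of 0.1.

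Foxj1 made 1 lower call in PRC1CKO with TMM and without the correction (-1.17). Foxa1 made 1 lower call between treated lines with DESeq2 and with TMM. Estimates not called in the main comparison changed sign for Foxf1 between untreated lines (0.16 with DESeq2 and 0.18 with edgeR) and in the interaction (-0.56 and -0.59), for Foxj1 in PRC1CPM with TMM (-0.026), and without the correction for Foxd3 in PRC1CKO (-0.0064), Foxc2 between treated lines (0.10) and Foxa3 between untreated lines (-0.044).

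With 1 library left out, calls ranged from 2416 to 4055 in PRC1CKO, from 1707 to 2854 in PRC1CPM, from 116 to 477 between treated lines, from 244 to 1570 between untreated lines and from 1 to 28 for the interaction. The members called lower in PRC1CKO ranged from 0 to 1, as did those called higher and those called lower between untreated lines. Estimates that changed sign ranged for Foxd3 from -0.59 to 0.16 between untreated lines, from -0.19 to 0.55 in PRC1CKO and from -0.57 to 0.062 in PRC1CPM, for Foxf2 between untreated lines from -0.65 to 0.43, for Foxa1 there from -0.45 to 0.051, for Foxj1 in PRC1CPM from -0.31 to 0.40 and for Foxc2 between treated lines from -0.20 to 0.071. In the interaction they ranged for Foxa2 from -0.32 to 0.62, for Foxa3 from -0.17 to 0.26 and for Foxf1 from -0.24 to 2.36. The cause was not tested.

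The replicate numbers met the pairing check in 3 of the 4 comparisons of groups, and not in PRC1CKO or over all 18 pairs, which the interaction uses. All 12 libraries were closest to one of their own number, as a hint from the data and not from the design. With a replicate block 4258 genes were called in PRC1CKO, 3494 in PRC1CPM, 1363 between treated lines, 1884 between untreated lines and 324 for the interaction. The block added 1 lower call in PRC1CKO (Foxj1), 2 lower calls between treated lines (Foxa1 and Foxd3), and between untreated lines 1 higher call (Foxc2) and 1 lower call (Foxf1), and changed no other call of the 9.

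Outside the 9 genes, 68 called results of the genes given by the naming rule, with Ptch1, Gli1, Hhip and Gli3, were followed, of which 48 were kept under all 20 alternatives and 20 were lost under some. In PRC1CPM 12 of the other forkhead genes and 5 Hedgehog genes were called higher without the correction, 3 primitive endoderm markers without a filter, and 2 Hedgehog genes lower with DESeq2 and with TMM. In PRC1CKO 4 motile cilium genes were called higher with DESeq2. Depth limits the genes with few untreated reads: Foxf2 had 5 and 3 reads over the untreated libraries of PRC1CKO and PRC1CPM.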

Other observations

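Some forkhead genes below the read filter had reads mainly in treated cells, and none was tested. Others did not: Foxp3 had mean normalised read counts of 3.59 before and 2.99 after OHT in PRC1CKO and of 5.62 and 1.80 in PRC1CPM. Foxi1 had 0.513 before and 0.603 after in PRC1CKO and 0.904 and 1.48 in PRC1CPM. Foxd4 had 0, 2 and 0 reads before and 4, 12 and 4 after OHT in PRC1CKO replicates 1 to 3, and 0 in each library before and 10, 2 and 2 after in PRC1CPM. Its mean normalised read counts after OHT were 6.07 in PRC1CKO (3.55 without replicate 2) and 4.46 in PRC1CPM (1.87 without replicate 1). Foxe3, a lens factor, had 0 reads in all untreated libraries of both lines, 2, 3 and 2 after OHT in PRC1CKO and 7, 1 and 0 in PRC1CPM, where replicate 1 thus held most of them. Shh, the third Hedgehog ligand and also below the filter, had 2, 0 and 0 reads before and 10, 8 and 0 after OHT in PRC1CKO, and 2, 2 and 0 before and 8, 8 and 10 after in PRC1CPM.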
